A study of Mus musculus with 8 samples.

Results

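The long-term stem cell genes described here are Hlf, Mecom, Prdm16, Tek, Procr, Esam, Robo4, Fgd5, Pdzk1ip1 and Ctnnal1, which mark or maintain long-term haematopoietic stem cells (HSCs). They were taken by name. Ensembl gene identifiers were matched to symbols, and each of the 10 genes had 1 row among the 37980 gene rows of the table. RNA had been sequenced from multipotent progenitors (MPPs) that were taken from mouse bone marrow as Lin-CD48-ckit+Sca1+CD135+CD150- cells, in 4 NA MPP libraries and 4 WT MPP libraries of 1000 cells each. All mice were C57BL/6. NA mice carried 1 NA LSL allele, which holds the NUP98-HOXA10hd fusion gene behind a stop cassette, together with Vav-Cre, a recombinase under a promoter that is active throughout the blood system. In the fusion, a stretch of the nucleoporin NUP98 is linked to the homeodomain of HOXA10. Matching in age is stated in the paper for the WT mice of its cell cycle assay. The age itself, the sex of the donors and whether the WT mice carried Vav-Cre are not given in the sources used here. The comparison asks how the fusion altered these genes in MPPs. Each library is called by its group and number, NA1 to NA4 and WT1 to WT4. The labels do not say whether the libraries of a group came from separate mice, so the p-values measure only the spread between these libraries, which may be technical.

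Long-term HSCs renew themselves through life, whereas MPPs, their direct offspring, keep the capacity to form all blood lineages but normally give rise to blood for a limited time. Transcription factors such as HLF, MECOM and PRDM16 act in the nucleus to maintain the stem cell state. Tek, Procr, Esam and Robo4 encode proteins of the cell surface that stem cells share with endothelial cells and that bind ligands or neighbouring cells. Fgd5, Pdzk1ip1 and Ctnnal1 encode proteins of the cell interior or membrane whose expression is used to find HSCs in the marrow.

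Values are normalised counts, that is, estimated reads per gene divided by 1 size factor per library, and the libraries held from 3876906 to 4916989 estimated reads. Hoxa10, whose homeodomain is part of the fusion, had a mean of 324 ± 32.0 in the NA libraries and 139 ± 8.0 in the WT libraries (n = 4 per group, SD, with a log2 fold change of 1.21 and a limma adjusted p of 2.57e-05), and the table does not separate the fusion from the endogenous gene. Among genes of the sorting gate and Cd34, Kit, Flt3 and Cd34 had means from 1197 to 3646 normalised counts and Slamf1 had means of 19.7 and 20.9, and none of these passed the test. Ly6a (Sca1) had a log2 fold change of -0.28 with a limma adjusted p of 0.0257, and Cd48 was at 17.7 ± 5.36 against 56.1 ± 21.3 (n = 4 per group, SD, and a limma adjusted p of 0.00711). Neither was called without NA4 and WT4, the fourth libraries described next (limma adjusted p = 0.160 and 0.0656). Xist averaged 1.92 ± 1.0 in the NA libraries and 1104 ± 173 in the WT libraries, and the Y-linked Eif2s3y averaged 604 ± 70.8 in the NA libraries (n = 4 per group, SD) with at most 1 estimated read in a WT library. The sex of the donors and the fusion therefore cannot be told apart for any gene below. The fourth libraries stood apart in another way, and NA4 and WT4 may not be replicates independent of the other 3 libraries of their groups. After a weighted sum of libraries 1 to 3 was subtracted, the excess variance left in WT4 was 0.00281 where an independent library of equal variance would leave at least 0.0376, and in NA4 it was 0.0142 against 0.0431. The ratio of these values was 0.0746 for WT4 and 0.331 for NA4, and it ran from 0.501 to 1.97 in the other 6 libraries. Each call of a stem cell gene is therefore also given without NA4 and WT4.

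All 10 genes passed the filter on low values, which asked for 10 normalised counts or more in 4 libraries and kept 11451 genes. By limma, with p-values adjusted over all tested genes and a threshold of 0.05, 3 of the 10 genes rose in NA MPPs (Hlf, Prdm16 and Procr), 2 fell (Tek and Robo4) and 5 did not pass (Mecom, Esam, Fgd5, Pdzk1ip1 and Ctnnal1). Over all tested genes 17.9% were called, 10.1% as higher and 7.87% as lower, beside 5 of the 10 genes, which were chosen with earlier results of these data known. Higher genes made up 56.1% of all calls and 41.3% when libraries were scaled by their total count, and the same 5 genes were called under that scaling. These 5 were also the genes in which the 4 NA and the 4 WT libraries did not overlap, which held for 22.0% of all tested genes. In bulk libraries a change in the share of cells of a type and a change in RNA per cell cannot be told apart. The median log2 fold change over the 10 genes was 0.01 against -0.01 over all tested genes, and the median size of the change regardless of sign was 0.25 against 0.28. Without the fourth libraries, where 4.63% of 11117 tested genes were called, 2 of the 10 genes passed, Hlf and Tek.

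**Figure D1:**
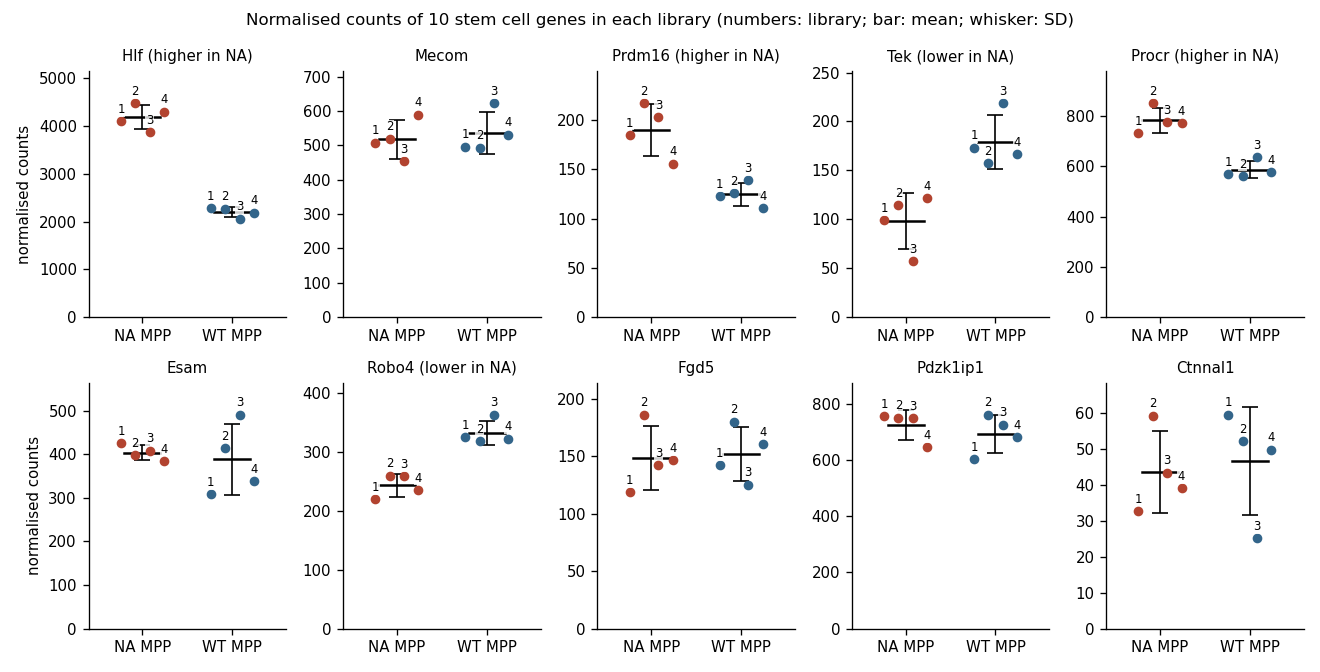
Normalised counts (vertical axes, each starting at 0) of the 10 stem cell genes in the 4 NA MPP and the 4 WT MPP libraries. Points are libraries with their number, bars are means and whiskers are SD. Hlf, Prdm16 and Procr lie higher in every NA library and Tek and Robo4 lower in every NA library than in any WT library, while the other 5 genes overlap.

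Promoter windows of the 5 genes that passed the test are shown to allow their sequence to be compared. Whether the promoters had a part in the changes was not tested. Each window runs from 250 bases before the annotated start to 50 bases from it, on the strand of the gene (RefSeq, GRCm38.p6). Capitals mark matches, on either strand, to the short motifs that are spelled out after the sequences.
Hlf, chr11:90390868-90391167, minus strand: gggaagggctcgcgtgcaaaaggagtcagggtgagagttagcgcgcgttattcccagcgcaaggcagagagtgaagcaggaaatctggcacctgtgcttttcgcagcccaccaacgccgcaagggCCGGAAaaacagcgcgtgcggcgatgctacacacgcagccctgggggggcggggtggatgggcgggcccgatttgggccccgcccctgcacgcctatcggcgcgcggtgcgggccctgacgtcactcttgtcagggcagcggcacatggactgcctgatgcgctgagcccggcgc
Prdm16, chr4:154636824-154637123, minus strand: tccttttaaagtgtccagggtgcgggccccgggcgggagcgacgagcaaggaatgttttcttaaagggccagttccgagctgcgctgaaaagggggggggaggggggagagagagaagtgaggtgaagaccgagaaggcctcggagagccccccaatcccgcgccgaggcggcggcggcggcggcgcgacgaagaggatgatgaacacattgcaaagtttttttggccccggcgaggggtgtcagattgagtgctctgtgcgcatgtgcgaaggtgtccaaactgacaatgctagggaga
Procr, chr2:155750967-155751266, plus strand: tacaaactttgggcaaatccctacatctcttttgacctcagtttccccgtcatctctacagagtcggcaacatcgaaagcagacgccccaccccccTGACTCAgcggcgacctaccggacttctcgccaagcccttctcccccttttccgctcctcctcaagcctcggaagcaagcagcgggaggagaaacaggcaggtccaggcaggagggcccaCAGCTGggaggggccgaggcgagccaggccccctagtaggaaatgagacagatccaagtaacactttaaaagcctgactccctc
Tek, chr4:94739039-94739338, plus strand: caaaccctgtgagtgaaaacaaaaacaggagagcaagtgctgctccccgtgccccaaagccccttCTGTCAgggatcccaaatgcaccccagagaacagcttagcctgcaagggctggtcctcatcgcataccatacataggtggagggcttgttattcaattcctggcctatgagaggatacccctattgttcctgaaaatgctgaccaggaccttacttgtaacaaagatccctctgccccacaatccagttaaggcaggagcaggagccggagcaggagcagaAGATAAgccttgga
Robo4, chr9:37401722-37402021, plus strand: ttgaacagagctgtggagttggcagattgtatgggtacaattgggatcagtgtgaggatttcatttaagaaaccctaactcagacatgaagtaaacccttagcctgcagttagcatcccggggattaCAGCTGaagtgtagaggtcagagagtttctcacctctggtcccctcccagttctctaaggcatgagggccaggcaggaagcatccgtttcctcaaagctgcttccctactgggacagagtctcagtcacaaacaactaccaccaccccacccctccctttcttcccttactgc

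No motif was matched in all of these windows. The Hlf window held CCGGAA, the core of ETS factor sites, 125 bases before the start, the Procr window held the AP-1 motif, searched as TGANTCA, 154 bases before it and the E-box, searched as CAGCTG, 34 bases before it, and the Robo4 window held the same E-box 123 bases before it. The Tek window held the MEIS motif, which reads TGACAG, on the opposite strand 185 bases before the start, and the GATA motif, searched as AGATAA, from base 37 of the transcript. The Prdm16 window had no match, nor did that of Ctnnal1. Among genes that did not pass, MEIS was matched in windows of Mecom, Fgd5 and Pdzk1ip1 and the E-box in that of Pdzk1ip1. In 32851 windows of the same length from the whole genome the E-box occurred in 16.3%, MEIS in 19.2%, ETS in 14.9%, GATA in 11.2% and AP-1 in 7.81%. The other motifs were not found in a window of the 5 genes. These were TGTGGT for RUNX factors, held by 16.8% of all windows, and TTTATGG for HOX factors, held by 2.75%. The last was TTACGTAA for HLF itself, held by 0.119%. The Hlf, Prdm16 and Procr windows had a GC content of 67.3%, 61.0% and 58.3% and held 30, 24 and 13 CpG dinucleotides, and the Tek and Robo4 windows had 52.0% and 50.3% with 3 and 2, where the median GC content of all windows was 52.7%. Windows of genes that did not pass covered the same range, from 71.3% with 37 CpG dinucleotides for Fgd5 and 70.3% with 24 for Ctnnal1 to 55.7% with 3 for Pdzk1ip1 and 52.0% and 49.7% with 19 and 9 for the 2 windows of Mecom. Mecom and Prdm16, which encode related proteins, shared a run of 24 bases, GCGCATGTGCGAAGGTGTCCAAAC, which began 27 bases (Mecom) and 10 bases (Prdm16) downstream of the annotated starts. The next longest run shared by any of the 44 pairs of windows of different genes was 12 bases.

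The transcription factors were examined first. Hlf (ENSMUSG00000003949, chr11:90336536-90390895 in GRCm38, GENCODE M21), a PAR-type bZIP factor whose expression marks HSCs and falls with differentiation, stood at 4096, 4473, 3872 and 4299 normalised counts in NA1 to NA4 and at 2279.8, 2268, 2061 and 2182 in WT1 to WT4. Every NA library lay above every WT library, and the lowest NA value was 1593 normalised counts above the highest WT value. The group means were 4185 ± 259 and 2198 ± 101 (n = 4 per group, SD), a ratio of 1.90, and the log2 fold change was 0.93 (standard error 0.0732, limma adjusted p = 1.86e-06). Of 11451 genes, 92.0% had a smaller change and only 2.13% a smaller spread within the groups. Without the fourth libraries the log2 fold change was 0.91 (limma adjusted p = 0.000126).

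Prdm16 (ENSMUSG00000039410, chr4:154316125-154636873), a zinc finger protein with a PR domain that is required to maintain HSCs, was at 185, 217, 203 and 156 normalised counts in NA1 to NA4 and at 123, 126, 139 and 111 in WT1 to WT4. NA4 was the lowest NA library and lay 17.0 normalised counts above WT3, the highest WT library. The means were 190.2 ± 26.4 and 125 ± 11.5 (n = 4 per group, SD), and Prdm16 rose by 0.60 on the log2 scale (standard error 0.154, limma adjusted p = 0.0158). With NA4 and WT4 left out the log2 fold change was 0.64 (limma adjusted p = 0.0834). The call was also lost without NA2 (limma adjusted p = 0.0502) and without WT4 alone (0.0628). Exons of the protein-coding B230104I21Rik, on the opposite strand, overlap those of Prdm16. It was not matched in the table, and strand use in counting was not stated.

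Mecom (ENSMUSG00000027684, chr3:29951296-30548008), which encodes EVI1 and its longer form with a PR domain and is required for HSC self-renewal, was at 508, 519.8, 453 and 589 normalised counts in NA1 to NA4 and at 496, 494, 623 and 532 in WT1 to WT4. The groups overlapped over most of their range, with WT3 the highest of the 8 libraries and NA3 the lowest. Its log2 fold change was -0.05 with a 95% interval from -0.29 to 0.19 (limma adjusted p = 0.791), so a change of about the size seen for Prdm16 lay outside the interval. The antisense transcript Mecomos, which overlaps an exon of Mecom, did not exceed 1.88 normalised counts in a library.

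The receptors and adhesion proteins moved in both directions. Procr (ENSMUSG00000027611, chr2:155751117-155755471), the endothelial protein C receptor (EPCR, CD201), used as a surface marker to purify HSCs, was at 733, 851, 776 and 772 normalised counts in NA1 to NA4 and at 569, 561, 636 and 578 in WT1 to WT4. All NA libraries lay above all WT libraries, by at least 96.3 normalised counts. The means were 783 ± 49.2 and 586 ± 34.4 (n = 4 per group, SD), and Procr rose by 0.42 on the log2 scale (standard error 0.0899, limma adjusted p = 0.00615). The log2 fold change stayed at 0.42 without NA4 and WT4 (limma adjusted p = 0.0759).

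Tek (ENSMUSG00000006386, chr4:94739289-94874976), the receptor tyrosine kinase TIE2 that binds angiopoietins and is tied to HSC quiescence in the niche, was at 98.9, 115, 57.2 and 122 normalised counts in NA1 to NA4 and at 173, 157, 219 and 167 in WT1 to WT4. NA3 was the lowest of the 8 libraries and WT3 the highest, and the groups were separated by 35.8 normalised counts. The means were 98.1 ± 28.9 and 179 ± 27.2 (n = 4 per group, SD), a ratio of 0.548, and Tek fell by 0.91 on the log2 scale (standard error 0.223, limma adjusted p = 0.0128). Without NA3 the log2 fold change was -0.67 (limma adjusted p = 0.0155), and without the fourth libraries it was -1.06 (limma adjusted p = 0.0482). NA3 also had the lowest share of values in mitochondrial genes, 6.91% against 9.27% to 9.47% in the other NA libraries, and the part of this difference in its Tek value was not tested.

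Robo4 (ENSMUSG00000032125, chr9:37401897-37415115), a Roundabout family receptor that guides HSCs to the niche and is otherwise known from endothelium, was at 219, 259, 259 and 235 normalised counts in NA1 to NA4 and at 325, 318, 363 and 322 in WT1 to WT4. All WT libraries exceeded all NA libraries, by at least 58.8 normalised counts. The means were 243 ± 19.4 and 332 ± 20.9 (n = 4 per group, SD), and Robo4 fell by 0.45 on the log2 scale (standard error 0.114, limma adjusted p = 0.0150). It was -0.45 without NA4 and WT4 (limma adjusted p = 0.134), without NA4 alone it was -0.44 (0.0521), and with a trend on GC content removed from each library it was -0.33 (0.0586).

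Esam (ENSMUSG00000001946, chr9:37528078-37538319), an adhesion molecule of endothelial junctions that is also a marker of stem cells, lies 112963 bp from Robo4. It was at 426, 398, 408 and 384 normalised counts in NA1 to NA4 and at 308, 414, 491 and 338 in WT1 to WT4. The NA values fell inside the range of the WT values, which spread over a far wider span. The log2 fold change was 0.08 with a 95% interval from -0.21 to 0.37 (limma adjusted p = 0.719). Robo4 and Esam, although close on the chromosome, thus gave 1 call and 1 value that did not pass, and the difference between them was not tested. No promoter window was held for Esam.

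None of the signalling and scaffold genes passed the test. Fgd5 (ENSMUSG00000034037, chr6:91978878-92076004), an exchange factor that activates the small GTPase CDC42 and is used as an HSC reporter locus, was at 119, 186, 142 and 146 normalised counts in NA1 to NA4 and at 142, 180.1, 125 and 161 in WT1 to WT4. Pdzk1ip1 (ENSMUSG00000028716, chr4:115088708-115093899), which encodes the small membrane protein MAP17 and lies beside the HSC regulator Tal1, was at 758, 751, 749.7 and 646 in NA1 to NA4 and at 605, 762, 726 and 682 in WT1 to WT4. Ctnnal1 (ENSMUSG00000038816, chr4:56810935-56865188), which encodes alpha-catulin and marks rare HSCs in reporter mice, was at 32.7, 59.2, 43.4 and 39.0 in NA1 to NA4 and at 59.5, 52.1, 25.0 and 49.7 in WT1 to WT4. In each of the 3 genes the groups overlapped. The lowest and the highest library were both NA libraries for Fgd5 and both WT libraries for Pdzk1ip1 and Ctnnal1. The log2 fold changes were -0.04 for Fgd5 (95% interval from -0.41 to 0.33), 0.07 for Pdzk1ip1 (from -0.14 to 0.28) and -0.06 for Ctnnal1 (from -0.73 to 0.61). Their limma adjusted p-values were 0.898, 0.670 and 0.918. For Ctnnal1, the least expressed of the 10 genes, the interval is wide enough to hold a change as large as that of Robo4.

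**Figure D2:**
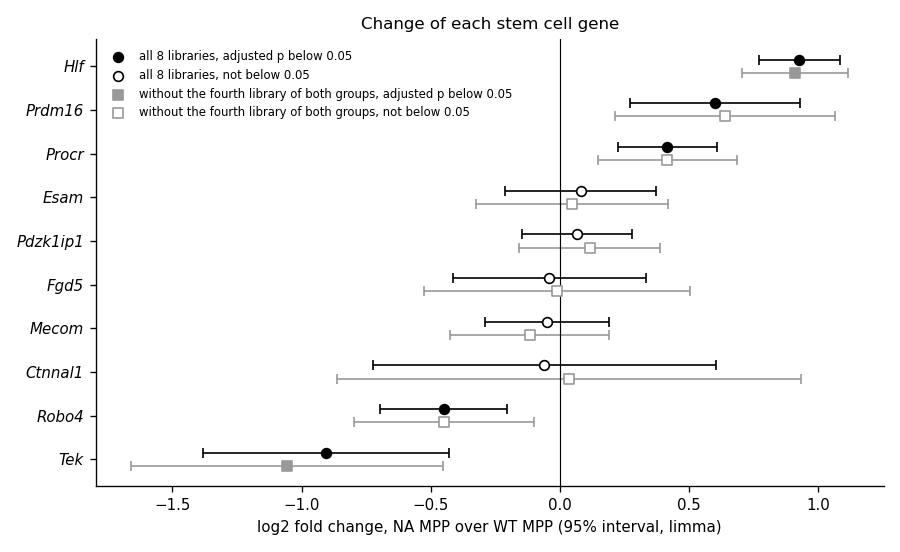
Log2 fold change of each gene, NA MPP over WT MPP (horizontal axis), with 95% intervals from limma. Black circles use all 8 libraries and grey squares leave out NA4 and WT4, and filled symbols have an adjusted p below 0.05. Hlf at 0.93 and Tek at -0.91 stand at the ends and pass in both fits. Prdm16, Procr and Robo4 have similar values in both, and pass with all 8 libraries but not without NA4 and WT4.

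The genes spanned a wide range of levels. After division by exon length, the WT MPP means ran from 390.2 normalised counts per kilobase for Pdzk1ip1, 329 for Hlf and 289 for Procr, through 135 for Esam, 62.6 for Robo4, 43.1 for Mecom, 38.0 for Tek and 24.2 for Fgd5, to 13.4 for Prdm16 and 6.08 for Ctnnal1. The median over all tested genes was 33.9. Pdzk1ip1, Hlf and Procr thus lay above 95.8%, 94.9% and 94.0% of tested genes on this scale, and Prdm16 and Ctnnal1 above 25.2% and 12.0%. In NA MPPs Hlf had the highest length-corrected level of the 10 genes, 626 against 408 for Pdzk1ip1, and Tek (20.8) and Prdm16 (20.4) stood at nearly the same level. The 5 genes that changed were found at both high and low levels.

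**Figure D3:**
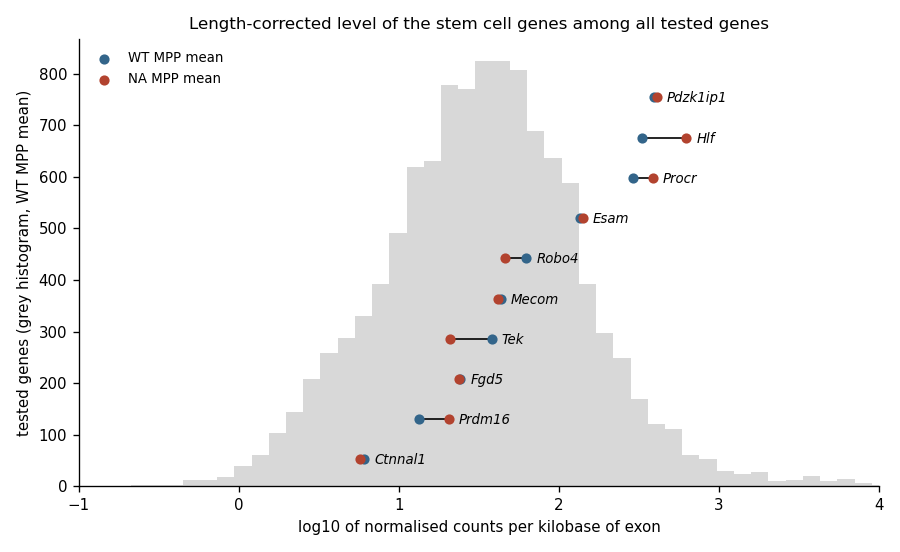
Length-corrected level of each gene, as log10 of normalised counts per kilobase of exon, with the WT MPP mean in blue and the NA MPP mean in red. The grey histogram gives the WT MPP means of all tested genes, counted on the vertical axis, and the height at which a gene is drawn has no meaning. Pdzk1ip1, Hlf and Procr lie far to the right, and Hlf moves past Pdzk1ip1 in NA MPPs.

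Within a group the libraries did not vary in the same way for all genes. On the log2 scale the median SD within groups was 0.16 over the 10 genes and 0.25 over all tested genes. Hlf, Procr and Robo4 were the least variable, with an SD below that of all but 2.13%, 3.01% and 6.04% of tested genes, whereas Tek and Ctnnal1 lay above 72.4% and 80.7%. NA2 held the highest NA value for 6 of the 10 genes, where it was highest for 23.9% of all tested genes, and WT3 held the highest WT value for 6 of 10, against 30.8%. NA2 also had the highest Slamf1 of all libraries (CD150, an HSC marker for which the sorted cells were negative), 47.9 normalised counts against 3.69 to 14.0 in the other NA libraries and 16.9 to 30.6 in WT libraries. WT3 had the highest S100a9 (158 normalised counts) and Camp (39.8), which encode granule and cytosolic proteins of neutrophils, and the part of either difference in the stem cell genes was not tested. Without NA2 and WT3 all of Hlf, Prdm16, Procr, Tek and Robo4 passed, where 11.2% of 11138 tested genes were called.

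**Figure D4:**
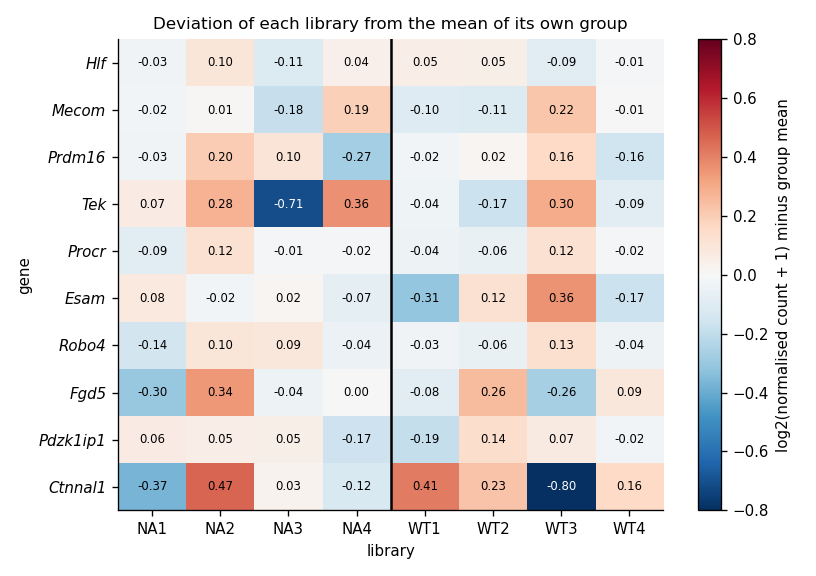
Deviation of each library from the mean of its own group, as log2(normalised count + 1), for the 10 genes (rows) in the 8 libraries (columns). The largest deviations are those of Ctnnal1 in WT3 (-0.80) and Tek in NA3 (-0.71), and WT3 is above its group mean for 7 genes.

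With the group means removed, Procr and Robo4 varied together over the 8 libraries (Pearson r = 0.87), although they changed in opposite directions between the groups. Mecom and Tek (r = 0.84) and Fgd5 and Ctnnal1 (r = 0.77) also did so, while Esam and Ctnnal1 had r = -0.75. These are descriptions over 8 libraries that share their depth and scaling, among 45 pairs. Among 8991 other genes with a mean of at least 50, the genes whose values followed the called members most closely over the 8 libraries were Osbp for Hlf (r = 0.997), Smarcc1 for Procr (0.989), Ptcd3 for Tek (0.973) and Mms19 for Robo4 (0.995), with that of Prdm16 not given. For the genes that did not pass they were Traf6 for Mecom (0.939), Slc48a1 for Esam (0.960), Ldah for Fgd5 (0.937), Trir for Pdzk1ip1 (0.955) and Rptor for Ctnnal1 (0.944). Each of these is the highest of 8991 values and is given as a description. With the group means removed the closest gene was another one for each of the 10, such as Cep63 for Hlf (0.998) and Sgms1 for Tek (0.997).

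Because Tek, Procr, Robo4 and Esam are also expressed by endothelial cells, markers of that cell type were examined. Of 15 endothelial markers, Cdh5, Lyve1, Sox17 and Mmrn2 were at 0 in all 8 libraries, Kdr (VEGF receptor) averaged 6.40 ± 3.43 in NA libraries and 11.9 ± 8.07 in WT libraries (n = 4 per group, SD), and 5 passed the filter. The summed level of the list ran from 1254 to 1473 in NA libraries and from 1435 to 1660 in WT libraries. Egfl7, a secreted vascular factor, fell from 435 ± 19.8 to 281 ± 54.0 normalised counts (n = 4 per group, SD, with a log2 fold change of -0.65 and a limma adjusted p of 0.00520), and Eng (endoglin, a TGF-beta co-receptor also found on HSCs) fell from 501 ± 52.4 to 375 ± 29.5 (n = 4 per group, SD, with a log2 fold change of -0.42 and a limma adjusted p of 0.0185). Neither was called without NA4 and WT4 (limma adjusted p = 0.0568 and 0.0920). Emcn, Pecam1 and Tie1, the closest relative of Tek, did not pass. Of 12 megakaryocyte markers, 9 passed the filter and Selp alone changed, by -1.18 (limma adjusted p = 0.0111), a call lost without NA4 and WT4 (0.157). The summed megakaryocyte level was 2933 to 3194 in NA libraries and 2776 to 2906 in WT libraries. The lymphoid list had a summed level of 160 to 276 in NA libraries against 428 to 527 in WT libraries, led by Dntt (log2 fold change -2.53, limma adjusted p = 5.47e-06), the granulocyte and monocyte list 3123 to 3369 against 3563 to 4630, and the erythroid list 4665 to 5349 against 4860 to 5080. Most of the erythroid sum was Car2 (4772 ± 297 and 4523 ± 71.4, n = 4 per group, SD), which did not pass. Hbb-bt, a beta globin gene with a near-identical copy, fell from 163 ± 24 to 41.2 ± 12.0 (n = 4 per group, SD, with a log2 fold change of -1.99 and a limma adjusted p of 6.79e-05), also without NA4 and WT4 (0.00298). Klf1, Epor and Car1 did not reach the filter, with NA means of 3.46, 1.99 and 0 and WT means of 12.2, 8.47 and 29.0. The part of these differences in the stem cell genes was not tested.

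Genes that act with the 10 were described from 10 lists of 165 distinct genes, of which 127 passed the filter. Of these, 25 rose and 11 fell in NA MPPs, 28.3% against 17.9% of all tested genes, with a median log2 fold change of 0.12. With NA4 and WT4 left out, 126 were tested, 8 rose and 3 fell, where 4.63% of all tested genes were called. The largest rise and fall among the called genes of each list are given, and the other genes named below were chosen after their values were seen. Some genes that did not pass had larger log2 fold changes.

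**Figure D5:**
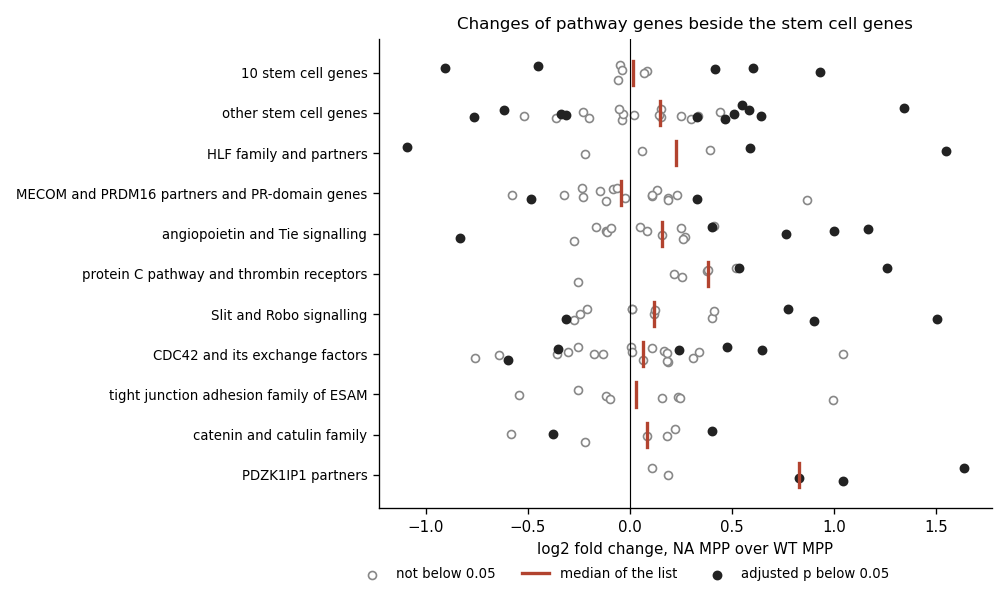
Log2 fold change, NA MPP over WT MPP (horizontal axis), of the 10 stem cell genes and of the tested genes in 10 lists of related genes. Filled points have an adjusted p below 0.05, red bars are list medians, and vertical scatter within a row only separates points. Most lists have their median between 0 and 0.4, and the 5 tested PDZK1IP1 partners have the highest, 0.83.

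Of 28 other stem cell genes, 26 passed the filter, 7 rose and 4 fell, with a median of 0.15. The largest rise was that of Clec1a, a C-type lectin receptor, with 77.9 ± 10.9 in NA libraries against 33.0 ± 18.6 in WT libraries (n = 4 per group, SD, with a log2 fold change of 1.34 and a limma adjusted p of 0.0106). Bmi1, a Polycomb protein needed for HSC self-renewal, rose by 0.64, Mllt3, which maintains human HSCs in culture, by 0.55 and Gata2 by 0.33 (limma adjusted p = 0.00582, 0.00183 and 0.0275). The largest fall was that of Mycn, at 437 ± 50.1 against 756 ± 178 (n = 4 per group, SD, with a log2 fold change of -0.76 and a limma adjusted p of 0.00433), followed by Ifitm3 at -0.62 (limma adjusted p = 0.000391). Slamf1, Hoxb5, Vwf and Meis1 did not pass, so this list, like the 10 genes, held genes that rose, genes that fell and genes that did not pass. Without the fourth libraries Mllt3 still rose (limma adjusted p = 0.0301), and Mycn and Ifitm3 still fell (0.0341 and 0.00777). In that fit 7 calls of the list were lost, among them Clec1a, Bmi1 and Gata2 (limma adjusted p = 0.0834, 0.0554 and 0.188).

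Around Hlf, the related factors Dbp, Tef and Nfil3 did not pass the test. In the same list of 6, all tested, Cebpb rose by 1.54 and Cebpg by 0.59 on the log2 scale and Cebpa, the driver of granulocytic differentiation, fell by 1.09 (limma adjusted p = 0.0352, 0.0117 and 0.0324), and all 3 calls were lost without the fourth libraries (0.113, 0.116 and 0.226). Around Mecom and Prdm16, 18 of 22 partners and PR-domain genes passed the filter, and Gata2 rose and the deacetylase gene Hdac1 fell by 0.48 (limma adjusted p = 0.0407). The median of that list was -0.04, and without the fourth libraries neither passed (limma adjusted p = 0.188 for Gata2 and 0.197 for Hdac1). The corepressor genes Ctbp1 and Ctbp2, which MECOM and PRDM16 bind, had log2 fold changes of 0.19 and -0.08 (limma adjusted p = 0.138 and 0.766).

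Around Tek, 17 of 22 genes of angiopoietin and Tie signalling passed the filter, 4 rose and 1 fell (median 0.16). The ligand Angpt1 averaged 2614 ± 538 in NA libraries and 2169 ± 133 in WT libraries (n = 4 per group, SD, and a limma adjusted p of 0.168), while Angpt2 and Angpt4 had means below 1 and the phosphatase gene Ptprb was at 0 in all libraries. The adaptor gene Shc1 rose most, from 109 ± 2.54 to 248 ± 51.0 (n = 4 per group, SD, with a log2 fold change of 1.16 and a limma adjusted p of 0.000274), followed by the integrin gene Itgb1 at 1.0 (0.00019), the PI3-kinase subunit gene Pik3r1 at 0.76 (0.00875) and Foxo3 at 0.40 (0.00972). Dok2, an adaptor that binds activated TIE2, fell by 0.83 (limma adjusted p = 0.0238). Shc1 and Itgb1 were still called without the fourth libraries (limma adjusted p = 0.00763 and 0.00657), and the other 3 were not.

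Around Procr, the 13 genes of the protein C pathway and the thrombin receptors gave 8 that passed the filter and a median of 0.38. Pros1, which encodes the cofactor protein S, rose by 1.26 and the thrombin receptor gene F2r, which EPCR-bound activated protein C also cleaves, by 0.53 (limma adjusted p = 0.0219 and 0.0307), and neither was called without the fourth libraries (0.0834 and 0.173). Proc, the ligand gene, was at 0 in all libraries. Around Robo4, 13 of 22 genes listed for Slit and Robo signalling passed the filter, 3 rose and 1 fell (median 0.12). The chemokine receptor gene Cxcr4, which acts with ROBO4 in stem cell homing, rose from 73.8 ± 22.4 to 207 ± 35.2 normalised counts (n = 4 per group, SD, with a log2 fold change of 1.5 and a limma adjusted p of 0.000298). Arf6 rose by 0.90 and Srgap3 by 0.77, and Rac2 fell by 0.32 (limma adjusted p = 0.000139, 0.0083 and 0.0134). Cxcr4 and Arf6 were still called without the fourth libraries (limma adjusted p = 0.00880 and 0.00702), and Srgap3 and Rac2 were not (0.0555 and 0.0867). None of the ligand genes Slit1, Slit2 and Slit3 or the receptor genes Robo1, Robo2 and Robo3 passed the filter.

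Around Fgd5, 23 of 25 matched genes of CDC42 and its exchange factors passed the filter, 3 rose and 2 fell (median 0.06). Wipf1 rose most, by 0.64, Fgd4 by 0.47 and Cdc42 itself by 0.24, and Dock10 fell by 0.60 and Arhgdib by 0.35 (limma adjusted p = 0.0120, 0.0426, 0.0346, 0.0354 and 0.00248). Only Arhgdib among these was called without the fourth libraries (limma adjusted p = 0.0405). Around Esam, none of the 8 tested genes of the tight junction adhesion family passed, among them F11r, Jam2 and Jam3. Around Ctnnal1, 7 of 11 genes in a list of catenins and other genes passed the filter. The catenin genes Ctnna1, Ctnnb1, Ctnnd1 and Jup did not pass the test. The GTPase gene Rhoa rose by 0.40 and the kinase gene Ikbkb fell by 0.38 (limma adjusted p = 0.0472 and 0.0187). Both calls were lost without the fourth libraries (0.198 and 0.141). With the GC trend removed Rhoa was not called (limma adjusted p = 0.142) and Ikbkb was (0.0262). Around Pdzk1ip1, whose product binds SMAD4, 5 of 8 partners passed the filter and 3 rose. Smad4 rose from 175 ± 55.4 to 540.2 ± 133 normalised counts (n = 4 per group, SD, with a log2 fold change of 1.63 and a limma adjusted p of 0.000253), Smad1 by 1.04 (0.00170) and Gigyf1 by 0.83 (0.0177). Smad4 and Smad1 were still called without the fourth libraries (limma adjusted p = 0.00539 and 0.0251), and Gigyf1 was not (0.0777).

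The genes beside the stem cell genes in the genome were examined last. Of the 20 nearest tested neighbours, 1 on each side of each gene and with Msantd2 counted for both Robo4 and Esam, only Nr2c2 was called, where 17.9% of all tested genes were. This gene lies 15386 bp from Fgd5 and rose by 1.28 (limma adjusted p = 0.00372), while Fgd5 itself did not pass. None of the 10 nearest neighbours of Hlf, Prdm16, Procr, Tek and Robo4 was called. Tal1, 16953 bp from Pdzk1ip1, was 0.24 higher in NA MPPs on the log2 scale, which did not pass (limma adjusted p = 0.0920).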

How the data were processed

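RNA of 1000 sorted MPPs per library was reverse transcribed, amplified as cDNA and made into Nextera XT libraries, which were sequenced on a NextSeq 500. Per the labels, the authors used bcl2fastq, RSEM and DESeq2 with the mm10 build, as listed in the submitters' processing notes, and versions, annotation and strand use are not given in the sources used here. Although named raw counts, the deposited values were treated as a signal, that is, as RSEM estimates already divided by a size factor. For every library, 98.4% to 98.9% of values between 0.5 and 60 were whole multiples, within 0.05, of a step of 0.888 to 1.18, and dividing by it gave the estimated reads. Because the values were not taken as counts, the planned edgeR and DESeq2 alternatives on recovered reads were not run. A fit with limma voom on the estimated reads, rounded to whole numbers, was added.

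Identifiers were matched to GENCODE M21 (GRCm38), which named 32916 of 37980 rows and 93.8% of the 17710 rows above 0. limma 3.58.1 in R 4.3.3 was applied to log2(value + 1), with a mean-variance trend, to genes with at least 10 in at least 4 libraries, and p-values were adjusted by Benjamini-Hochberg over all tested genes (threshold 0.05). A fold change is on the log2(value + 1) scale, which understates changes of low genes. The procedure was tested on simulated data with independent libraries, which do not bear on whether NA4 and WT4 are independent. Exon length per gene was the union of its exons. Each 3 reads correspond to 2.66 to 3.54 normalised counts, and the lowest member value was 25.0, and this floor covers counting error alone, because reads of amplified cDNA were not counted as molecules. Named genes were the 10 members, the largest rise and fall called in each list, genes at issue for a member and the closest genes by Pearson r. The members and lists were chosen with earlier results of these data known, so no list was tested as a set. Some genes and a motif of these lists are not reported here. The alternatives are other pseudocounts, filters, scalings and variance models, a depth covariate, a replicate block, libraries left out, and, added after the data were seen, fits without NA2 and WT3, with a GC trend removed and with limma voom.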

Additional observations from a re-analysis of the deposited data

Results flagged for a closer look

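In groups of 4 libraries the highest or lowest value was set against the others, and 5 of the 28 groups examined held a value whose gap to its nearest neighbour was a large part of the range of the group (the 95% limit of Dixon's test), where chance gives 1.4. Robo4 was at 363 normalised counts in WT3 and at 318 to 325 in the other WT libraries. Pdzk1ip1 was at 646 in NA4 and at 749.7 to 758 in the other NA libraries. Slamf1 was at 30.6 in WT2 and at 16.9 to 18.2 in the other WT libraries. NA4 held 3887851 estimated reads and the other NA libraries 4909393 to 4916989. Mitochondrial genes took 6.91% of the values in NA3 and 9.27% to 9.47% in the other NA libraries.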

How the results depend on the processing

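The 10 genes gave 209 log2 fold changes over 21 alternatives, of which 190 kept their direction and their side of the threshold, 7 lost the call and 12 changed sign without passing. Hlf (0.83 to 0.96) and Tek (-1.06 to -0.67) passed in all 21, Procr in 20, and Prdm16 and Robo4 in 18 each, and the losses are given with each gene. The sign changes were those of Mecom without NA3 (0.011), without WT3 (0.024) and without NA2 and WT3 (0.019), Esam without WT1 (-0.022), Fgd5 without NA1 (0.060), without WT2 (0.045) and with the GC trend removed (0.078), Pdzk1ip1 under total scaling (-0.00063), and Ctnnal1 without NA1 (0.064), WT1 (0.079), WT2 (0.016) or NA4 and WT4 (0.035). With 1 library left out at a time Mecom ran from -0.11 to 0.024, Esam from -0.022 to 0.20, Fgd5 from -0.16 to 0.060 and Ctnnal1 from -0.33 to 0.079. The number of the 10 genes called was 4 to 5 with 1 library left out and 2 without NA4 and WT4. Over all genes, 2053 calls became 1106 without NA4, 1294 without WT4, from 1106 to 2141 over all fits without 1 library, 515 without NA4 and WT4 and 1251 without NA2 and WT3. Scaling by the total count gave 2239 calls, of which 41.3% were higher against 56.1% in the fit reported, and 71.8% were higher without NA4 and WT4. Of the list genes, 36 calls became 22 to 36 with 1 library left out (22 without NA4, 24 without WT1 or WT4), 11 without NA4 and WT4, 22 without NA2 and WT3 and 24 without a variance trend. Among the list genes named above, calls were lost most often for Rhoa (in 16 of 21 alternatives), Fgd4 (13), Cdc42 and Hdac1 (11 each) and Cebpb (10). The cause of these losses was not tested. Same-numbered NA and WT libraries had correlations of their deviations of 0.150, 0.00052, 0.0034 and 0.237 over 9000 genes. Pairs of unlike number ran from -0.142 to 0.179, so NA4 and WT4 had the highest value of all pairs. The numbers were not taken to pair the samples. The fit with the replicate block called 2004 genes in all, the same 5 of the 10 genes and 36 list genes. The planned edgeR and DESeq2 alternatives were not run. With 4 libraries per group the 95% intervals of Mecom, Esam, Fgd5, Pdzk1ip1 and Ctnnal1 limit what can be said of their change.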
